A study of Mus musculus with 8 samples.

Results

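The 10 genes described here encode transcription factors of the mast cell lineage: Gata1, Gata2 and the GATA cofactor Zfpm1, the basic helix-loop-helix factors Tal1 and Lyl1, Runx1, Mitf, the ETS factor Spi1 (PU.1), Ikzf1 and Cebpa. They were chosen by gene name from the 55359 genes of the deposited count table, each was found there once, and the transcripts of Mitf and Runx1 were taken in addition. RNA was sequenced from 8 untreated cultures of murine peritoneal mast cells (PMCs), all derived from mice of wild-type genotype on a C57BL/6x129/Sv strain background. Primary WT PMCs were represented by 3 female and 3 male cultures, which the labels call biological replicates, and the lines PMC-303 and PMC-306 by 1 library each. Both lines had arisen spontaneously from aged and neglected cultures, their sex is given as not applicable, and no age of the mice is given in the sources used here. The paper describes a male karyotype in PMC-306, with a heterozygous deletion on chromosome 4. In most analysed metaphases of PMC-303 it reports an extra copy of chromosome 8. According to the methods, the lines were kept with less serum and less stem cell factor than the primary cultures, so that line and medium cannot be told apart in the libraries used here.

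Mast cells descend from haematopoietic progenitors, and their identity is set by a small circuit of factors. GATA2 acts from the progenitor stage onwards, GATA1 later during maturation, and both bind GATA motifs, often in a complex with TAL1 or LYL1, an E protein, LMO2 and LDB1. MITF is the basic helix-loop-helix zipper factor without which mice have few mast cells, and it controls KIT and granule protease genes. PU.1, the product of Spi1, cooperates with GATA factors in mast cells, whereas C/EBPα (Cebpa) directs cells towards granulocytes and basophils and is kept low in mast cells. FOG-1 (Zfpm1) is the GATA cofactor of erythroid cells and megakaryocytes, and it is known to oppose mast cell fate. RUNX1 and Ikaros (Ikzf1) act broadly in blood cells.

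Libraries held between 15918758 and 24180226 estimated counts. Levels of one gene are given as CPM, which are counts relative to the library size after TMM scaling (trimmed mean of M values), and levels of different genes are compared only as TPM, which account for length. Of the 16 mast cell genes checked, all but 3 had more than 3 counts in both lines. Itga4 had 0 counts in PMC-303, and in PMC-306 a single read was assigned to Tpsab1 and to Mcpt4. Among them Kit, the receptor for stem cell factor, had 1946 CPM in PMC-303, 2055 CPM in PMC-306 and 3359 to 3932 CPM in primary cultures. In these bulk samples, fewer cells of a type and less RNA per cell cannot be told apart.

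Of the 10 factors, 9 passed the filter (a count of about 10 in at least 2 libraries and 15 in total) and were expressed in every library. PMC-306 departed from the primary cultures for 8 of these 9 factors. It was below all 6 primary cultures for Gata1, Tal1, Lyl1, Runx1 and Spi1 and above all of them for Gata2, Mitf and Zfpm1. PMC-303 left the primary range for 4 factors, with Gata1, Zfpm1 and Ikzf1 above and Runx1 below. Over all 14529 genes tested, 64.2% were outside the primary range in PMC-306 and 63.4% in PMC-303, so that 8 of 9 was above and 4 of 9 below the share of all genes. With both lines set against the 6 primary cultures, limma on log2(CPM + 0.1) with Benjamini-Hochberg adjustment over all genes called 2 factors, Runx1 and Lyl1, both lower, where 15.5% of all genes were called lower and 18.3% higher. No factor was called higher by limma. At an unadjusted p under 0.05, 1 factor was higher and 3 were lower, and limma with voom weights gave 0 higher and 2 lower after adjustment. In total 33.9% of all genes were called. The median log2 difference of the 9 factors was -0.32 against -0.01 over all genes tested, and the median size of the difference was 0.32 against 0.38.

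**Figure D1:**
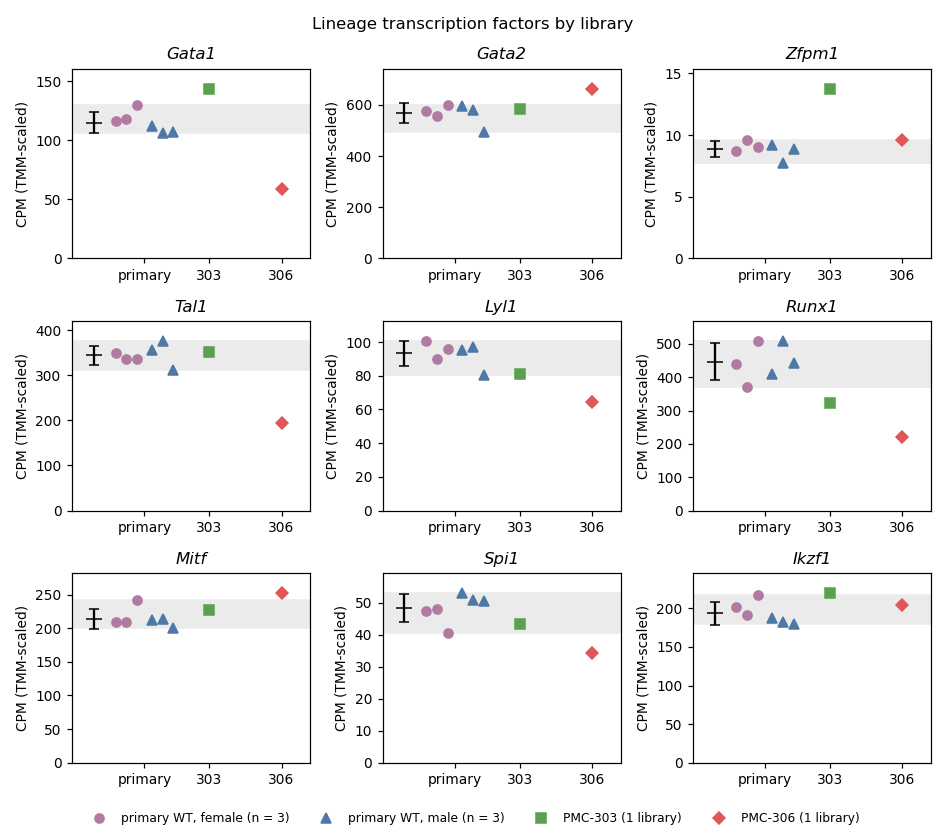
TMM-scaled CPM (vertical axes, from 0) of the 9 expressed factors in each library, with female primary cultures as circles, male as triangles, PMC-303 as a square and PMC-306 as a diamond. The black bar is the mean ± SD of the 6 primary cultures and the grey band their range. PMC-306 lay below the band for Gata1, Tal1, Lyl1, Runx1 and Spi1, and PMC-303 below it for Runx1.

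**Figure D2:**
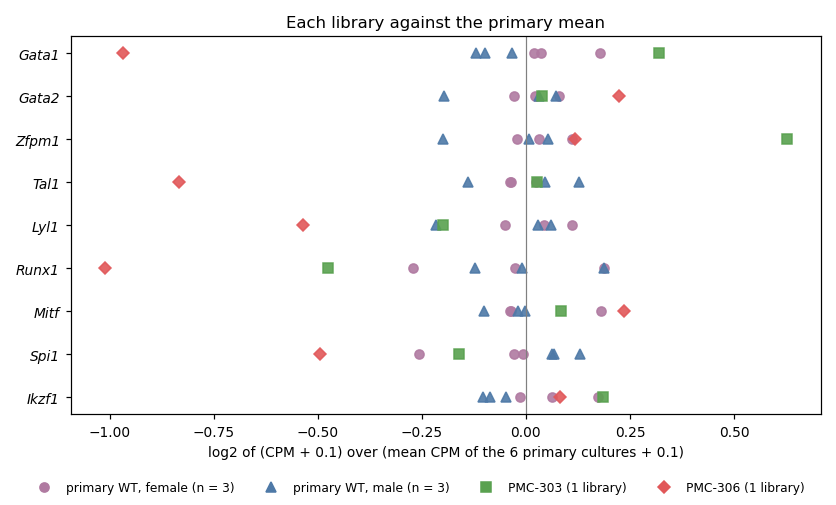
Log2 ratio of each library to the mean of the 6 primary cultures (horizontal axis) for the same factors (vertical axis), with symbols as named in the key. The primary cultures scattered closely around 0, and the values of PMC-306 farthest below were those of Runx1 (-1.01) and Gata1 (-0.97).

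Gata1 lies at chrX:7825499-7844310 (GRCm39, minus strand). PMC-303 had 143 CPM and PMC-306 had 58.7 CPM, and the primary cultures ran from 106 through a median of 114 to 130 CPM. PMC-303 was thus above and PMC-306 below every primary culture, on opposite sides of a narrow range. Relative to the primary mean of 115 ± 8.83 CPM (SD, n = 6), PMC-306 had 51.1% and PMC-303 had 125%, which are log2 ratios of -0.97 and 0.32. Of all genes tested, 4.38% were outside the primary range in opposite directions in the 2 lines, and Gata1 was the 1 factor of the 9 that was. The lines together did not differ from the primary cultures beyond the spread of the libraries (log2 difference -0.32, SE 0.27, limma adjusted p = 0.39). With PMC-306 alone the log2 difference was -0.96 and passed the test (limma adjusted p = 0.0013), where the lone library is assumed to vary like the others, and with PMC-303 alone it was 0.32. Over all 17 alternative fits its adjusted p ran from 0.0013 to 0.87.

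Gata2 lies at chr6:88170559-88184018 (GRCm39, plus strand). PMC-303 had 582 CPM and PMC-306 had 662 CPM, against a lowest value of 495, a median of 578 and a highest value of 600 CPM in primary cultures. PMC-303 was inside this range and PMC-306 above it. The difference between lines and primary cultures was 0.13 on the log2 scale (SE 0.096, limma adjusted p = 0.32) and did not pass the test.

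The balance of the 2 GATA factors therefore differed between the lines. The ratio of Gata1 to Gata2 counts, which does not depend on the scaling of the libraries, was between 0.182 and 0.217 in primary cultures. It was 0.246 in PMC-303 and 0.0886 in PMC-306, again outside the primary range on opposite sides.

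Zfpm1, which encodes the GATA cofactor FOG-1, lies at chr8:123008805-123065024 (GRCm39, plus strand) and was expressed at a low level. PMC-303 had 13.7 CPM (334 counts) and PMC-306 had 9.62 CPM (196 counts), and the primary cultures had 7.71 to 9.58 CPM with a median of 8.99 CPM. PMC-303 stood well above the range and PMC-306 only just outside it. The log2 difference of the lines was 0.38 (SE 0.15, limma adjusted p = 0.094). It passed the test without PMC-306 (0.63, adjusted p = 0.023) and with total counts as library sizes (0.48, adjusted p = 0.032), in a range of 0.023 to 0.60 over the 17 alternatives. Genes along chromosome 8 also stood higher there (PMC-303), where the median log2 ratio was 0.24 over 462 genes against 0.05 over 8738 genes of the genome with at least 10 CPM on average. Around Zfpm1, the 39 such genes within 2 Mb had a median of 0.16, and Zfpm1 itself had a ratio of 0.63. The paper reports a trisomy (an extra copy) of this chromosome in most analysed metaphases of PMC-303. The part of the chromosome in this value was not tested.

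Tal1, at chr4:114913623-114928952 (GRCm39, plus strand), encodes the factor around which the GATA complex is assembled. PMC-303 had 350 CPM and PMC-306 had 193 CPM, and the primary cultures had 313 to 376 CPM with a median of 343 CPM. PMC-303 was in the middle of the primary cultures, whereas PMC-306 had 56.2% of their mean of 344 ± 21.4 CPM (SD, n = 6). Over both lines the log2 difference was -0.40 (SE 0.19, limma adjusted p = 0.13), and with PMC-306 alone it was -0.82 and passed the test (limma adjusted p = 0.0017). With PMC-303 alone it was 0.03, and over the 17 alternatives the adjusted p ran from 0.0017 to 0.87. The 25 expressed genes within 2 Mb of Tal1 had a median log2 ratio of 0.04 in PMC-306. Over the 538 such genes of its chromosome the median was -0.05 in PMC-306. The paper reports a heterozygous deletion on this chromosome in that line. Whether Tal1 lies within the deleted region was not tested, nor was the part of the deletion in its level.

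Lyl1, the close relative of Tal1, lies at chr8:85427936-85431569 (GRCm39, plus strand). Its values were 81.2 CPM (PMC-303) and 64.3 CPM (PMC-306), with 80.2, 95.6 and 101 CPM as the lowest, median and highest primary culture. PMC-306 was below the primary cultures, and PMC-303 lay at the lower end of their range. Lyl1 fell in the lines (log2 difference -0.36, SE 0.11, limma adjusted p = 0.035). The call was lost without PMC-306 (-0.20, adjusted p = 0.28) and also without female culture 1 (-0.34, 0.064), female culture 3 (-0.35, 0.059), male culture 1 (-0.36, 0.063) or male culture 2 (-0.35, 0.067). It was also lost with total counts as library sizes (-0.25, 0.14) or on deposited TPM (-0.22, 0.45), and it held in 7 of 17 alternatives, with adjusted p from 0.018 to 0.45. In PMC-303 the genes near Lyl1 had a median log2 ratio of 0.26 (52 genes within 2 Mb), whereas Lyl1 itself had -0.20.

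Runx1 showed the lowest log2 difference of the 9 factors, and it was the 1 factor below the primary range in both lines. The gene lies at chr16:92398354-92623037 (GRCm39, minus strand). PMC-303 had 322 CPM and PMC-306 had 222 CPM, and primary cultures ran from 370 through a median of 441 to 509 CPM. The lines and the primary cultures did not overlap. Both lines lay outside the primary range on the same side for 2 of the 9 factors, Runx1 and Zfpm1, and for 43.1% of all genes. Runx1 fell to 72.0% of the primary mean in PMC-303 and to 49.6% in PMC-306 (log2 difference of the lines -0.73, SE 0.16, limma adjusted p = 0.0096). It was called in 15 of 17 alternative fits, and lost without PMC-306 (-0.47, adjusted p = 0.085) and against female cultures only (-0.71, adjusted p = 0.080). Its adjusted p ran from 0.0046 to 0.085.

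Runx1 is transcribed from a distal and a proximal promoter, which give proteins with different N-termini. Of 11 transcripts that GENCODE release M39 lists for the gene, 7 were in the deposited table, 3 with a start in the distal region and 4 in the proximal region. The 250 bases before each start are shown because both starts were in use, and the core RUNX motif TGTGGT (or ACCACA on the other strand) is in capitals. The distal window is chr16:92623038-92623287 and precedes the annotated gene. The proximal window is chr16:92494217-92494466 and lies in an intron of the distal transcript. Both are given on the minus strand.
Runx1 distal: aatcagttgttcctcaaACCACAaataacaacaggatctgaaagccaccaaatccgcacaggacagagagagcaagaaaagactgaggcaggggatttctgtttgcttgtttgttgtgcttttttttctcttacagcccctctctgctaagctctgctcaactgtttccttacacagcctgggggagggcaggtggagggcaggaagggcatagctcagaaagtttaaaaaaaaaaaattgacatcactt
Runx1 proximal: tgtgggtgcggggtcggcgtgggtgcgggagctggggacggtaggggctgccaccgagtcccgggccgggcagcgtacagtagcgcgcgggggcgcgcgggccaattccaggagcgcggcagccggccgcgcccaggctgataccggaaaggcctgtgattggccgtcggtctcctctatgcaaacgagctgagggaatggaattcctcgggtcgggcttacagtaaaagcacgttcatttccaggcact
The distal window held 1 match and the proximal window held none. Among 12 such windows (2 each for Runx1 and Mitf and 1 for each other factor) 3 held this motif, those of distal Runx1, upstream Mitf and Gata2, and 13% of 21770 windows before protein-coding genes of the mouse held it. Likewise on both strands, AGATAA, which GATA factors bind, was found in 0 of the 12 windows (9.6% of all windows). CAGATG, an E-box, was found in 2 windows (13%), and GAGGAAG, which ETS factors bind, in 2 windows (10.3%). No matches overlapped.

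The distal start gave 44.5% of the estimated Runx1 transcript counts in PMC-303 and 47.2% in PMC-306. In primary cultures its share ran from 43.3 through a median of 49.1 to 49.5%. Both lines were within this range only through female culture 2, since the other 5 primary cultures had 48.0 to 49.5%, above both lines. The difference of -2.18 percentage points did not pass an exact permutation test (two-sided p = 0.29, where 28 arrangements allow no p under 0.071). Both starts were thus in use in every library. Runx1-201, the long distal transcript, had 133 CPM in PMC-303, 82.2 CPM in PMC-306 and 140 to 215 CPM in primary cultures (log2 difference -0.70, SE 0.21, limma adjusted p = 0.071). Runx1-202, the long proximal transcript, had 134 CPM in PMC-303, 79.8 CPM in PMC-306 and 127 to 160 CPM in primary cultures (log2 difference -0.41, SE 0.19, adjusted p = 0.22). PMC-303 was thus below the primary cultures for the distal transcript and inside their range for the proximal one.

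The transcripts of Runx1 that passed the test were others. Runx1-206, a proximal transcript with a retained intron, had 42.8 CPM in PMC-303, 36.1 CPM in PMC-306 and 71.6 to 103 CPM in primary cultures, and it fell (log2 difference -1.10, SE 0.15, limma adjusted p = 0.0034). Its share of the Runx1 counts was 13.3% in PMC-303, 16.3% in PMC-306 and 17.6 to 20.8% in primary cultures, so that no library overlapped. Runx1-205, a short proximal coding transcript at a low level, also fell (1.39 and 1.09 CPM against 2.33 to 4.74 CPM, log2 difference -1.33, SE 0.30, adjusted p = 0.029). The distal Runx1-207, for which no coding sequence is given, had 9.38 and 20.8 CPM against 19.8 to 47.8 CPM (log2 difference -1.33, SE 0.37, adjusted p = 0.059), and the distal Runx1-204 had 0.415 and 1.57 CPM against 0.812 to 3.00 CPM (adjusted p = 0.26). Of the 45029 transcripts tested, 9.94% were called. The 5 transcripts that encode protein, 1 of which had 0 counts, together had 269 CPM in PMC-303, 165 CPM in PMC-306 and 279 to 379 CPM in primary cultures, so that the lines remained below when Runx1-206 and Runx1-207 were set aside. Salmon divides reads in shared exons between transcripts by estimation, and the libraries were of total RNA, so that unspliced RNA was also sequenced.

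**Figure D3:**
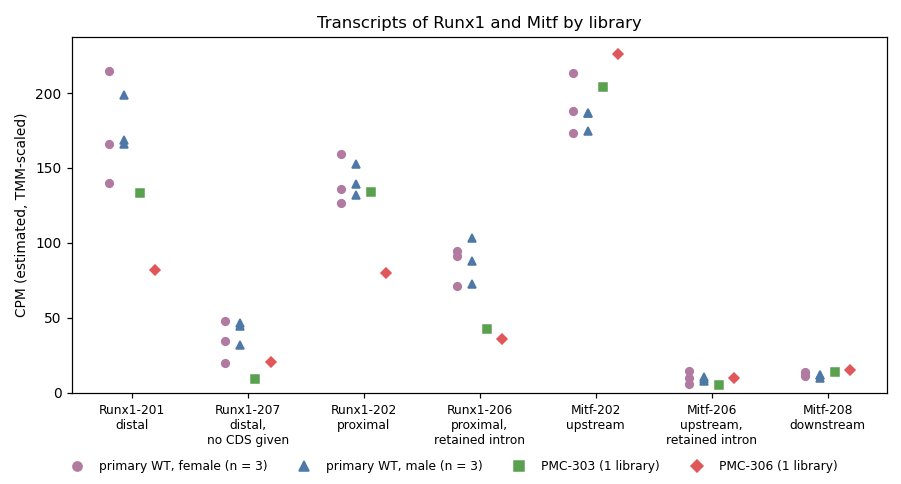
TMM-scaled CPM (vertical axis, from 0) of the main transcripts of Runx1 and Mitf in each library, with symbols as named in the key. Both lines were below all primary cultures for Runx1-201 and Runx1-206, and PMC-303 was inside their range for Runx1-202. For Mitf-202 PMC-306 was above all primary cultures.

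Mitf lies at chr6:97783950-97998323 (GRCm39, plus strand) and has a series of first exons, of which the most upstream gives the widely used A form and the most downstream the M form of melanocytes. PMC-303 had 227 CPM and PMC-306 had 252 CPM, and primary cultures had 200 to 243 CPM with a median of 210 CPM. PMC-303 was inside the primary range and PMC-306 slightly above it. The log2 difference was 0.16 (SE 0.085, limma adjusted p = 0.18).

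The windows before the most upstream and the most downstream start are shown because the first carried most of the counts, and the second is the one known from melanocytes. They are chr6:97783700-97783949 and chr6:97968503-97968752 on the plus strand, with TGTGGT or ACCACA in capitals.
Mitf upstream: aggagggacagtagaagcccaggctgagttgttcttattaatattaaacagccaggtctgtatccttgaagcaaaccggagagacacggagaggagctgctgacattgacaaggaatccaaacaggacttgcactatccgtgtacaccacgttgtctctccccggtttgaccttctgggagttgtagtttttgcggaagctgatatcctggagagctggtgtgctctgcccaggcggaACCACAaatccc
Mitf downstream: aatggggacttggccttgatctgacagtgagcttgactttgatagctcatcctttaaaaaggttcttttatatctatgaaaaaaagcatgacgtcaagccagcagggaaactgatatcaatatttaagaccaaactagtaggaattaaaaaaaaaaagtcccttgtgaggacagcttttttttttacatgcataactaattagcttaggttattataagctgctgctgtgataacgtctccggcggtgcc
The upstream window held 1 match of the RUNX motif close to the start, and the downstream window held none of the 4 motifs.

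The most upstream start of Mitf gave 92.4% of the transcript counts in PMC-303, 93.6% in PMC-306 and 89.8 to 93.5% in primary cultures, with a median of 92.5%. The difference of 0.70 percentage points did not pass the test (exact permutation two-sided p = 0.50). Mitf-202, a coding transcript of this start, made up nearly the whole, with 204 CPM in PMC-303, 226 CPM in PMC-306 and 173 to 214 CPM in primary cultures (log2 difference 0.24, SE 0.10, limma adjusted p = 0.21). The downstream start gave 6.41% in PMC-303, 6.28% in PMC-306 and 5.52 to 6.89% in primary cultures (difference 0.29 points, exact permutation two-sided p = 0.43). Most of these counts were those of the short transcript Mitf-208 (13.7, 15.5 and 10.1 to 13.9 CPM, adjusted p = 0.25). The full-length Mitf-201 had 0.866 CPM in PMC-303, 0.337 CPM in PMC-306 and 0 to 2.13 CPM in primary cultures. A start between these 2, that of Mitf-204, gave 0.594% in PMC-303, 0.140% in PMC-306 and 0.744 to 2.91% in primary cultures, and the lines and primary cultures did not overlap (exact permutation two-sided p = 0.071, the smallest p this design can give). Mitf-204 itself had 1.35 and 0.352 CPM against 1.57 to 6.07 CPM (log2 difference -1.78, SE 0.57, limma adjusted p = 0.090), and the retained-intron transcript Mitf-206 had 5.14 and 9.75 CPM against 5.86 to 14.6 CPM (adjusted p = 0.56). Of the melanocyte genes, Tyr and Tyrp1 had 0 counts in all libraries, and the highest level of the 5 genes in a line was 0.737 CPM. This was Pmel in PMC-306, the 1 gene that passed the filter. It had 0.494 CPM in PMC-303 and 0.0525 to 0.367 CPM in primary cultures. Limma did not call Pmel (log2 difference 1.29, SE 0.49, adjusted p = 0.073). At an unadjusted p under 0.05 it was higher in the lines, and with voom weights it was called higher.

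Spi1 (PU.1) lies at chr2:90912562-90946101 (GRCm39, plus strand). PMC-303 had 43.3 CPM and PMC-306 had 34.3 CPM, and 40.6, 49.4 and 53.0 CPM were the lowest, median and highest primary values. PMC-306 was below the primary cultures and PMC-303 among them. The log2 difference was -0.32 (SE 0.12, limma adjusted p = 0.073). Without PMC-303 it was -0.48 and passed the test (adjusted p = 0.037), and without female culture 3, the lowest primary culture, it was -0.37 and passed it too (adjusted p = 0.029). The range over the 17 alternatives was 0.029 to 0.45.

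Cebpa, at chr7:34818718-34821353 (GRCm39, plus strand), was at or near 0 in every library. It had 0 counts in PMC-303, 1 count in PMC-306, 3 counts in female culture 3 and 0 counts in the other primary cultures. The highest of these, 0.158 CPM, equals the level that a count of 0 allows (3 counts) in that library, so that no fold is given. Of its relatives, Cebpb had 5.60 CPM in PMC-303, 5.45 CPM in PMC-306 and 4.46 to 7.69 CPM in primary cultures.

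Ikzf1, which encodes Ikaros, lies at chr11:11634980-11723186 (GRCm39, plus strand). PMC-303 had 220 CPM and PMC-306 had 205 CPM, and primary cultures had 180 to 218 CPM with a median of 189 CPM. PMC-303 was marginally above the range and PMC-306 inside it. The log2 difference was 0.14 (SE 0.086, limma adjusted p = 0.26).

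Compared by TPM, Gata2 was the most abundant of the 10 factors in every group. Its TPM was 272 in PMC-303, 317 in PMC-306 and 168 to 267 in primary cultures, where the median was 244. In primary cultures the medians then followed in the order Runx1 (117 TPM), Gata1 (88.2 TPM), Tal1 (87.2 TPM), Lyl1 (65.5 TPM), Mitf (65.4 TPM), Ikzf1 (49.4 TPM), Spi1 (40.1 TPM) and Zfpm1 (4.16 TPM), with Cebpa at 0. Of neighbours in this order, Gata1 was above Tal1 in 4 of 6 cultures and Lyl1 above Mitf in 3 of 6, so that these pairs were not separated, whereas each other neighbour kept its place in 6 of 6.

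The order of the factors differed between the lines. In PMC-303 Gata1 took the second place with 127 TPM, and Runx1 the fourth with 78.8 TPM. In PMC-306 Mitf took the second place with 81.6 TPM, Runx1 the third with 68.1 TPM, and Gata1 the sixth with 51.9 TPM. Male culture 3 had the lowest TPM of the primary cultures for 7 of the 9 expressed factors, with a median of 70.8% of the other cultures, against 92.0% in CPM, so that ranges in TPM were widened by this library.

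**Figure D4:**
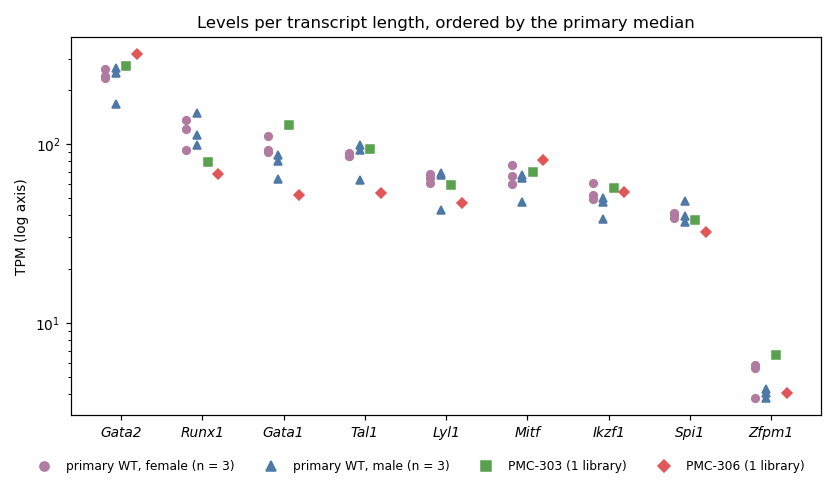
TPM (vertical log axis) of the 9 expressed factors in each library, ordered by the primary median, with symbols as named in the key. Gata2 was the highest in every library. Gata1 ranked second in PMC-303 (127 TPM) and sixth in PMC-306 (51.9 TPM), and the lowest triangle for Gata2 is male culture 3.

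Female and male primary cultures were compared to see how far the factors vary among primary PMCs. No factor was called (limma, 0 of 9, against 0.0424% of 14159 genes), 1 had an unadjusted p under 0.05, and with voom weights 0 were called and 0 had an unadjusted p under 0.05. That 1 factor was X-linked Gata1, with a mean of 121 CPM in female and 108 CPM in male cultures (log2 difference 0.17, SE 0.068, limma adjusted p = 0.9997). Gata1 and Ikzf1 were higher in each female than in each male culture, and Spi1 was lower in each female culture. Such separation of the sexes was seen for 3 of the 9 factors and for 7.97% of all genes. These differences were smaller than those of PMC-306 from the primary cultures for Gata1 and Spi1, but not for Ikzf1. Its log2 difference between the sexes was 0.16, against log2 ratios of 0.08 in PMC-306 and 0.18 in PMC-303.

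The partners of these factors were examined from a list of 16 genes, of which 14 passed the filter. Limma called 4 higher and 4 lower, where 18.3% of all genes tested were called higher and 15.5% lower. The median log2 difference of the 14 was -0.08 (all genes tested, -0.01). Cbfb, whose product pairs with RUNX1 on DNA, rose while Runx1 fell, from 96.0 to 125 CPM in primary cultures to 240 CPM (PMC-303) and 208 CPM (PMC-306) (log2 difference 1.04, SE 0.11, adjusted p = 0.00027). Lmo2, the bridge between TAL1 and LDB1, fell from 45.9 to 60.4 CPM in primary cultures to 27.0 and 34.4 CPM (-0.82, SE 0.14, adjusted p = 0.0030).

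Among the called partners, Lmo4 and Ssbp2 had the largest differences. Lmo4, a LIM-only protein that also binds LDB1, rose from 11.7 to 33.5 CPM in primary cultures to 86.3 CPM (PMC-303) and 87.4 CPM (PMC-306) (2.17, SE 0.36, adjusted p = 0.0023). Tcf4, an E protein gene, had 0.206 CPM in PMC-303, 7.07 CPM in PMC-306 and 1.26 to 47.9 CPM in primary cultures, and was not called (-2.55, SE 1.47, adjusted p = 0.22). Ssbp2, a single-stranded DNA-binding protein that stabilises LDB1, fell from 2.64 to 4.13 CPM to 0.617 and 0.246 CPM (-2.79, SE 0.31, adjusted p = 0.00034). For the called genes Cbfb, Lmo2, Lmo4 and Ssbp2 both lines were outside the primary range on the same side. A call on both lines together favours genes with such a placement, so that it is not a separate result.

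**Figure D5:**
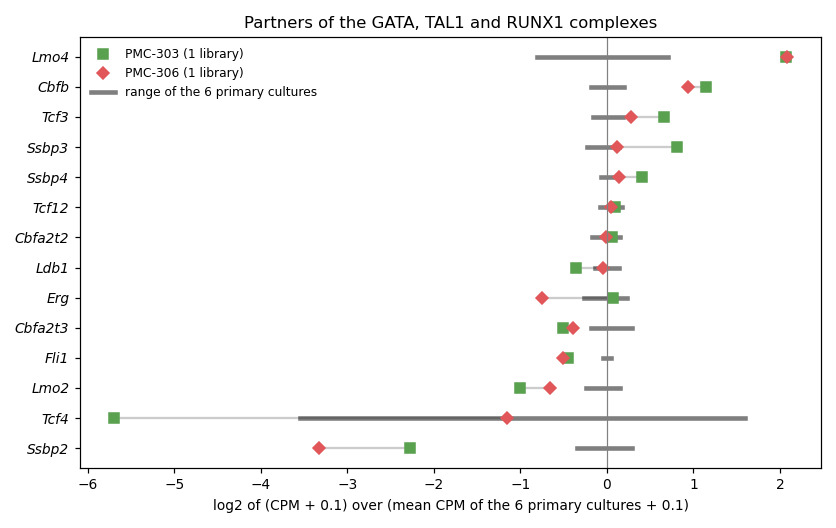
Log2 ratio to the primary mean (horizontal axis) of the 14 tested partner genes (vertical axis) in PMC-303 (squares) and PMC-306 (diamonds), with the range of the 6 primary cultures as a grey bar. Both lines lie to the right of the bars of Lmo4 and Cbfb and to the left of those of Lmo2 and Ssbp2.

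Of 21 family relatives of the factors, 11 passed the filter, and 2 were called higher and 3 lower (median log2 difference -0.20). The shares over all genes tested were 18.3% higher and 15.5% lower. Gata3, the GATA factor of T cells, fell from 1.52 to 3.27 CPM in primary cultures to 0.0823 and 0.589 CPM (-2.66, SE 0.50, adjusted p = 0.0043), of which the value of PMC-303 rests on 2 counts. Tfeb, a relative of Mitf that controls lysosomal genes, fell from 2.53 to 3.36 CPM to 0.617 and 1.57 CPM (-1.43, SE 0.31, adjusted p = 0.0087). Runx3 fell to 43.3 and 50.7 CPM from 58.9 to 71.2 CPM (-0.43, SE 0.091, adjusted p = 0.0078), and Cebpg rose from 41.6 to 50.6 CPM to 79.0 and 60.3 CPM (0.55, SE 0.12, adjusted p = 0.0081). Runx1 and Runx3 were thus both lower in the lines, and Runx2 had 0.453 and 4.08 CPM against 0.264 to 4.10 CPM.

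Of 32 other regulators of blood cells, 20 passed the filter, with 3 called higher and 2 lower (median -0.17). Again 18.3% of all genes tested were called higher and 15.5% lower. Hlf, a factor of haematopoietic stem cells, rose from 0.158 to 0.766 CPM in primary cultures to 3.09 CPM (PMC-303) and 9.04 CPM (PMC-306) (3.53, SE 0.53, adjusted p = 0.0015). Maf fell from 5.56 to 16.4 CPM to 0.0412 CPM in PMC-303, where it had 1 count, and 4.66 CPM in PMC-306 (-3.71, SE 1.08, adjusted p = 0.028). Hes1, a target of Notch, rose from 15.1 to 29.6 CPM to 30.7 and 41.1 CPM (0.80, SE 0.23, adjusted p = 0.026), and Stat5b, which acts below KIT and the IL-3 receptor, fell from 136 to 177 CPM to 129 and 105 CPM (-0.39, SE 0.12, adjusted p = 0.032).

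The mast cell genes were examined beside the factors. Of 16, 8 were called lower and 0 higher by limma, with a median log2 difference of -0.74. Among all genes tested, 15.5% were called lower and 18.3% higher. At an unadjusted p under 0.05, 10 were lower and 1 higher, and with voom weights 6 were called lower and 0 higher. The largest falls were those of the granule proteases Mcpt4 (31.6 to 434 CPM in primary cultures, 1.85 CPM (PMC-303) and 0.0492 CPM (PMC-306)), Tpsb2 (2857 to 10441, 177 and 20.9 CPM), Tpsab1 (1.10 to 7.52, 1.15 and 0.0491 CPM) and Gzmb (470 to 827, 120 and 217 CPM). Tpsb2 and Tpsab1 are near relatives, so that reads may have been divided between them. Kit fell by 0.88 on the log2 scale (SE 0.12, adjusted p = 0.00089). The summed level of the 16 genes was 50984 CPM (PMC-303) and 43920 CPM (PMC-306) against 61960 to 95118 CPM in primary cultures.

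Genes of other cell types were mostly near 0. None of the 10 B and T cell genes and none of the 7 fibroblast and mesothelial genes passed the filter, and their summed levels in the lines were at most 0.344 CPM and 0.295 CPM. Of 13 erythroid and megakaryocyte genes 4 passed and 0 were called by limma (1 at an unadjusted p under 0.05, 0 with voom weights), with a summed level of 1340 CPM in PMC-303, 1135 CPM in PMC-306 and 1445 to 1985 CPM in primary cultures, nearly all of it Itga2b, which mast cells also express. Hba-a1, an alpha globin gene, did not pass the filter, with 464 counts (22.8 CPM) in PMC-306, 0 counts in PMC-303 and at most 0.046 CPM in primary cultures. The 14 monocyte, macrophage and neutrophil genes summed to 2.47 CPM in PMC-303, 432 CPM in PMC-306 and 5.97 to 65.1 CPM in primary cultures. In PMC-306 426 CPM of this were Adgre1, singled out after its value was seen. Itgam had 4.66 CPM there, 0 counts in PMC-303 and at most 0.659 CPM in primary cultures, and Mpo had 4 counts there against 1 count in PMC-303. The 3 genes of the list that passed the filter (Itgam, Adgre1 and Lyz2) were not called by limma, 6 had 0 counts in both lines, and of these C1qb, Elane and S100a8 had 0 counts in all libraries. Spi1, a factor on which macrophages depend, was at its lowest level in that library, and the part of these genes in the values of PMC-306 was not tested. The 4 basophil genes were not all near 0, and 3 of them passed the filter. Il3ra, a receptor chain for IL-3, fell (21.7 CPM in PMC-303, 17.0 CPM in PMC-306, 21.7 to 38.8 CPM in primary cultures, -0.71, SE 0.23, limma adjusted p = 0.039), which was not called with voom weights. Cd200r3 had 266 CPM in PMC-303, 291 CPM in PMC-306 and 277 to 575 CPM in primary cultures. Mcpt8 had 3.17 CPM, 0.246 CPM and 1.63 to 3.78 CPM in the same order. Neither Cd200r3 nor Mcpt8 was called by limma.

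For each factor the gene with the most similar pattern was the one with the smallest root mean square difference of log2(CPM + 0.1) over the 8 libraries, each gene centred on its own mean. For Tal1 this was Ms4a2, the beta chain of the high-affinity IgE receptor, with a difference of 0.056. Ms4a2 had 1865 CPM (PMC-303) and 1095 CPM (PMC-306) against 1717 to 2089 CPM in primary cultures, inside the range in PMC-303 and below it in PMC-306, as for Tal1. For Gata1 it was Jak1, a kinase of cytokine receptors, with 0.095, and for Runx1 the zinc finger gene Zfp839 with 0.079. Of all genes tested, 0.661% were within 0.2 of Gata1, 1.37% of Runx1 and 3.82% of Tal1. Gata2 was most similar to Zhx1 (0.022), Mitf to Usp42 (0.040) and Ikzf1 to Ccar1 (0.027). Lyl1 was most similar to Efcab14 (0.032), Spi1 to Ccdc137 (0.057) and Zfpm1 to Urb2 (0.041). Each of these other factors had 13.9 to 27.2% of all genes tested within 0.2. The distance is not scaled to the size of the departures, so that these shares also reflect how far each factor departed.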

How the data were processed

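Total RNA of the 8 cultures was made into stranded libraries. According to the paper and the submitters' processing notes, the authors trimmed reads with Trim Galore 0.6.7, used STAR 2.7.9a for alignment to GRCm39, and estimated gene and transcript abundance by Salmon 1.5.2. The deposited values are other than clean numbers: the authors' estimated counts per gene and transcript (not normalized) and TPM (scaled for length and library size) had passed through a spreadsheet program, which rewrote cells of gene counts (3.37%), transcript counts (3.22%) and gene TPM (21.8%). Rewritten cells, 18 of the 80 count cells of the 10 factors among them, were set back to numbers. Restored gene counts were within 0.2 of the sum of their transcripts for 99.7% of values, with a largest difference of 0.81 counts for the 10 factors. The point in TPM cells was placed by reference to the counts, which makes TPM dependent on them, and restored gene TPM summed to 998695 to 999614. No column of values was left without a sample.

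Because the tables held text cells, a count model was not used. CPM were computed on TMM library sizes, and limma 3.58.1 in R 4.3.3 with a mean-variance trend was fitted to log2(CPM + 0.1) of genes with about 10 counts in at least 2 libraries and 15 in total, with Benjamini-Hochberg adjustment over all genes and a threshold of 0.05. The offset of 0.1 CPM makes log2 differences of low genes smaller. Transcripts were fitted in the same way. Single lines, having 1 library, were placed against the range of the 6 primary cultures, and the fits without the other line assume that the lone library varies like the others. Shares of transcript starts were compared with exact permutation tests. The scripts were tested on simulated data. Starts within 2 kb were grouped, and windows were read from GRCm39 with GENCODE release M39, which was used here for positions and transcript names.

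The 10 factors and all gene lists were chosen with earlier results of these data known. Named besides the factors are transcripts of Mitf and Runx1 with a mean of at least 1 CPM, in each list up to 4 called genes with the largest difference among those with a mean of at least 1 CPM, and the most similar gene for each factor. Outside this rule Kit, Itga2b, Itga4, Hba-a1, Adgre1, Itgam, Lyz2, Mpo, Cd200r3, Mcpt8, Cebpb, Runx2, Tcf4, the genes at 0 and the transcript Mitf-201 were named as defining markers or relatives, after their values were seen. The same holds for Pmel. Alternatives were median-of-ratios and total-count library sizes, offsets of 0.5 and 1 CPM, no filter, voom weights, deposited TPM, primary cultures of 1 sex, and each library left out. Calculations outside R used Python 3.11.15. The limit of 3 counts for a count of 0 covers counting error only, whereas SE, SD and ranges reflect the spread between libraries.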

Additional observations from a re-analysis of the deposited data

Results flagged for a closer look

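Gata1 is listed because the lines lay on opposite sides of the primary range, with 143 CPM in PMC-303 against a highest primary value of 130 CPM, and 58.7 CPM in PMC-306 against a lowest primary value of 106 CPM. With 1 library per line, the difference between the lines was not tested.

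Among 23 measures over the 6 primary cultures, 6 had a culture far from the other 5, where chance gives about 1 in 20. These 6 were not independent, since all were levels or shares of Mitf and Runx1 or of their transcripts. Their number therefore overstates the excess over chance. Mitf had 243 CPM in female culture 3 (next 214 CPM), and so had its transcript Mitf-202, with 214 CPM (next 188 CPM). Female culture 1 had the lowest share of the upstream Mitf start, 89.8% (next 92.3%), and the highest level of Mitf-204, 6.07 CPM (next 3.06 CPM). Female culture 2 had the lowest share of the distal Runx1 start, 43.3% (next 48.0%), and therefore the highest share of the proximal start, 56.7% (next 52.0%). Without female culture 2 the distal share differed by -3.13 percentage points between lines and primary cultures, in place of -2.18.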

How the results depend on the processing

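Of 421 values recomputed under the alternatives, 382 were classed as unchanged, 21 as moved, 12 lost and 6 gained a call, and 0 called values reversed. The unchanged class includes values that were not called and changed direction. Among them were Gata1 (0.32 in place of -0.32) and Tal1 (0.03 in place of -0.40), both in the fit without PMC-306. The number of genes called was 4920, and fell to 2146 against female and 3031 against male primary cultures only, where fewer samples entered, and was between 3773 and 4665 with 1 library left out. Of the factors 2 were called, against 1 with no filter, 1 on deposited TPM, 0 against female and 1 against male cultures only, and 1 to 5 with 1 library left out, the 5 without PMC-303 and the 1 without PMC-306, female culture 1, male culture 1 or male culture 2. The cause was not tested. Total counts as library sizes moved the median of all genes by 0.11. They moved the share of called genes that were higher from 54.2% to 67.2%. Deposited TPM moved the median by 0.14 and this share to 70.9%. With total counts, 7 log2 ratios of PMC-306 and 1 of PMC-303 moved by more than the primary spread, by 0.09 to 0.12. On TPM, PMC-306 was inside the primary range for Lyl1 and Zfpm1, and PMC-303 was inside it for Ikzf1 and above it for Gata2.

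The shares of Mitf starts moved on deposited transcript TPM, by which the upstream share differed by -0.60 and the downstream share by 2.19 percentage points between lines and primary cultures. With 1 library left out these ranged from 0.13 to 1.27 and from 0.18 to 0.45 points, and the distal Runx1 share from -3.52 to -0.85 points. Female and male cultures share replicate numbers, and deviations of same-numbered cultures correlated at 0.382, -0.213 and 0.289. Values of mixed sign from so few pairs cannot decide whether same-numbered cultures were handled together. With a replicate block 5 genes were called between sexes, against 6 without it, and 0 of the factors. At 1 library per line, no difference of a single line has a replicate check, and levels of Cebpa under 3 counts cannot be told from 0.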
